A study of Mus musculus with 21 samples.

Results

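Granulocyte/macrophage progenitors (GMPs) from mouse bone marrow were sorted by their surface level of CD62L, and the RNA of the CD62L-neg end of the scale was compared with that of the CD62L-high end. The comparison used 6 of the 21 libraries of the series, 3 of CD62L-neg GMPs and 3 of CD62L-high GMPs, chosen by their labels alone. The 3 libraries of CD62L-low GMPs, which the study calls CD62L-intermediate, and the 3 of bulk GMPs, sorted without regard to CD62L, served as reference levels. Cells of all 4 GMP populations came from untreated C57/B6 mice and lay in the gate of lineage-negative SCA-1-negative C-KIT-positive CD34-positive CD16/32-positive cells. By the study's account, CD62L-neg GMPs were the small share of GMPs without CD62L or with dim staining, and CD62L-high GMPs were the brightest of the other GMPs. By the study's methods the mice were young adults. Their sex was not given in the sources used here, nor was it stated whether each library of a population was made from another mouse. The p-values therefore rest on the spread among these libraries alone, which may be technical.

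GMPs arise from multipotent progenitors and give rise to neutrophils and monocytes, but the gate that defines them is known to hold cells with other fates as well, among them the precursors of basophils, mast cells and eosinophils. CD62L is an adhesion molecule by which leukocytes roll on vessel walls. In this compartment, GATA1 and GATA2 are transcription factors of the erythroid, megakaryocyte, mast cell, basophil and eosinophil lineages, IRF8 and KLF4 are needed for monocytes, and GFI1 and C/EBPε are needed for neutrophils. The question put to the 6 libraries was which of these programmes differ between GMPs at the ends of the CD62L scale.

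The CD62L-neg libraries held between 12148893 and 12764020 counts, and the CD62L-high libraries between 13810605 and 15095490. CD62L-high replicate 1 stood apart from the other libraries. In it, 41.1% of counts fell on 3 gene models that overlap ribosomal RNA sequence (Gm23935, Gm26917 and Gm42418), against 22.4% to 29.5% in the other 11 GMP libraries, and 52.2% fell on protein-coding genes, against 63.7% to 68.1%. Some results that changed without this library are given with and without it. Counts of gene lists include it unless stated otherwise, and some of them differed without it. Levels are CPM, counts per 1e6 counts of the library, scaled by the trimmed mean of M values (TMM) over the 12 GMP libraries, and are given as mean ± SD of 3 libraries. Fold changes are CD62L-high over CD62L-neg on the log2 scale ± SE, from edgeR's quasi-likelihood test, and a gene was called where it passed 0.05 after Benjamini-Hochberg adjustment and differed by more than 2-fold.

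The genes of the gate shared by all GMP populations were present at both ends of the CD62L scale. Cd34 was at 149.5 ± 9.65 and 169 ± 16.6 CPM in CD62L-neg and CD62L-high GMPs, Fcgr3, a gene of CD16/32, at 169.6 ± 21.8 and 147 ± 5.15 CPM, and neither was called. Kit, the gene of C-KIT, was lower at the CD62L-high end, at 133 ± 19.6 CPM against 272 ± 9.40 CPM (−1.03 ± 0.16, adjusted p = 0.000985), a call that was lost without CD62L-high replicate 3 (−0.92). Ly6c2, a gene of the surface antigen Ly6C, which divides GMPs in its own right, was higher in CD62L-high GMPs, at 827 ± 223 CPM against 185 ± 8.79 CPM (2.17 ± 0.20, adjusted p = 2.46e-05). Reads of Ly6c2 and its near copy Ly6c1 may be shared.

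Markers of mature lymphoid cells, which the lineage gate should remove, were low. Of 10 B cell genes, 1 passed the filter on low counts (Cd79b), and Ms4a1, Pax5 and Vpreb3 had no count in either population. Summed over the list, B cell genes came to between 8.55 and 17 CPM in CD62L-neg libraries and between 12.5 and 19.2 CPM in CD62L-high libraries. Of 14 T and NK cell genes, 5, Cd3d, Cd3e, Cd3g, Gzma and Ncr1, had no count in either. The 1 member that passed the filter, Lck, a kinase of T cell receptor signaling, was lower in CD62L-high GMPs, at 1.91, 2.7 and 1.84 CPM against no count (at least 29.1-fold, adjusted p = 0.00369). The list summed to between 2.37 and 6.81 CPM in CD62L-neg libraries and to between 0.0675 and 1.20 CPM in CD62L-high libraries, and its part in the results was not tested.

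In a principal component analysis of the 12 GMP libraries, the first component, with 47.5% of the variance, ran from CD62L-neg to CD62L-high. CD62L-neg libraries lay between −39.5 and −35.2 on it, bulk GMPs between 1.6 and 1.9, CD62L-low GMPs between 2.4 and 7.5 and CD62L-high libraries at 39.1, 24.8 and 24.6. The second component, with 15.1%, set CD62L-high replicate 1 apart, at −38.1 against 8.1 and 8.3 for its replicates.

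**Figure D1:**
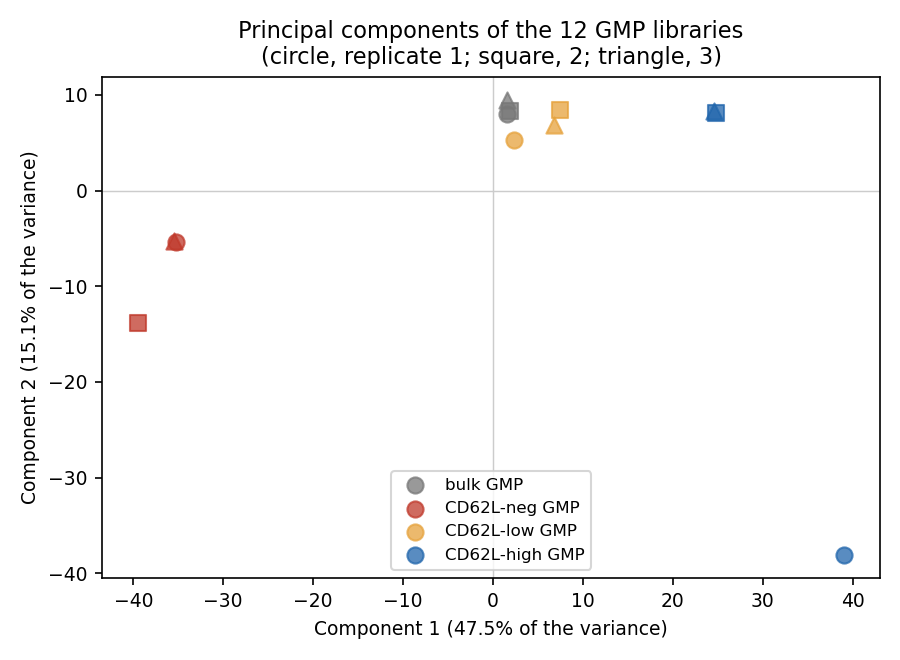
First and second principal components of log2(CPM + 4) over the 12 GMP libraries, with the share of the variance on each axis. Points are libraries, colors are populations and shapes are replicate numbers. CD62L-neg libraries sit at the left, below −35 on the first component, and CD62L-high libraries at the right, with replicate 1 of CD62L-high GMPs alone at the bottom.

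The test covered 12669 genes and called 1237 of them (9.76%). CD62L-high GMPs had the higher level of 572 (4.51%) and the lower level of 665 (5.25%). In every one of these 1237 genes, the 3 CD62L-high libraries lay on one side of the 3 CD62L-neg libraries, which held for 34.8% of all genes tested. Fold changes were larger among the genes lost toward the CD62L-high end. Of the lower genes, 180 differed by more than 16-fold and 58 had no count in any CD62L-high library, whereas 84 of the higher genes differed by more than 16-fold and 8 had no count in any CD62L-neg library. In bulk RNA, fewer cells of a type and less RNA per cell cannot be told apart, and this holds for every level below.

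**Figure D2:**
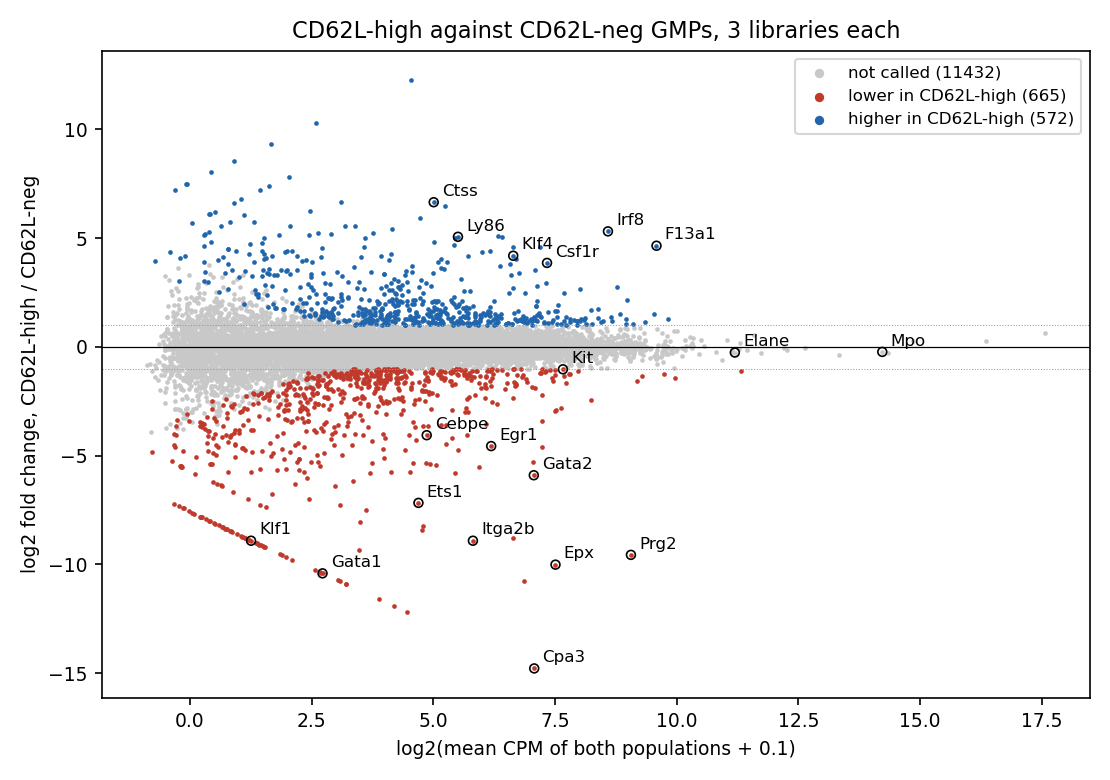
Log2 fold change of CD62L-high over CD62L-neg GMPs against the mean level of both, as log2(CPM + 0.1), for the 12669 genes tested. Each point is a gene, blue where called higher, red where called lower and gray where not called, and dotted lines mark a 2-fold change. The straight lower edge of red points is formed by genes without any count in CD62L-high GMPs, such as Klf1 and Gata1, whose fitted fold change depends on the prior count.

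For most called genes, CD62L-low GMPs took an intermediate level. Their mean lay between those of the 2 ends for 560 of the 572 higher genes and for 611 of the 665 lower genes. Among the lower genes, 50 were still lower in CD62L-low than in CD62L-high GMPs, and 4 were higher in CD62L-low than in CD62L-neg GMPs. On the log2(CPM + 1) scale, the median called gene in CD62L-low GMPs had covered 62.6% of the way from CD62L-neg to CD62L-high for higher genes and 61.3% for lower genes. Bulk GMPs, sorted without regard to CD62L, were also intermediate, with medians of 66.4% for higher genes and 55.6% for lower genes. CD62L-low libraries took no part in the choice of these genes, but the ends were chosen for their difference, so the counts are a description.

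**Figure D3:**
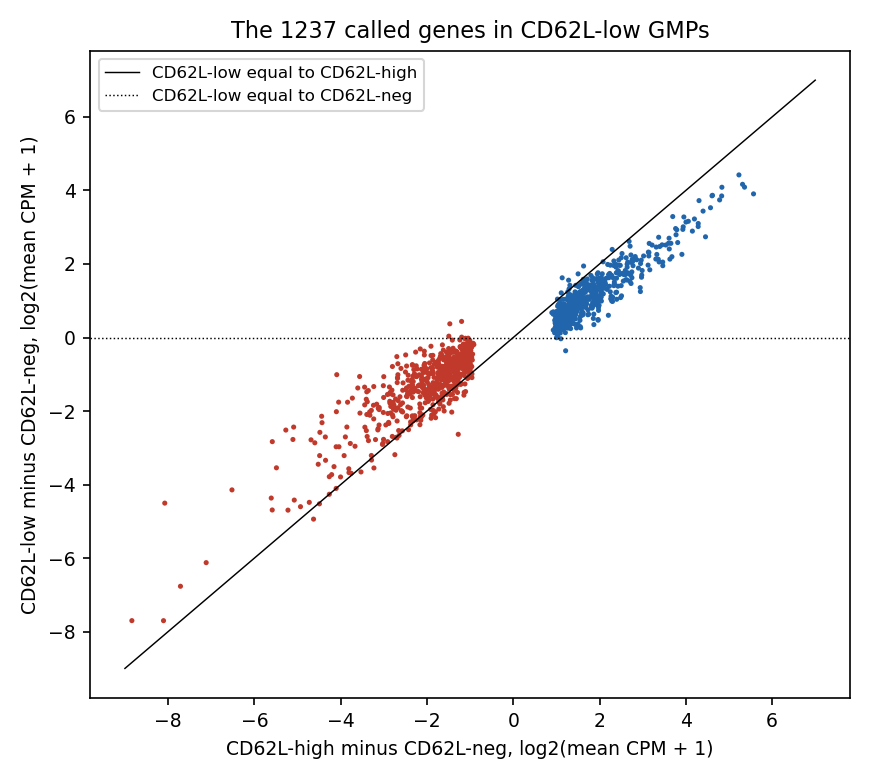
Level of each of the 1237 called genes in CD62L-low GMPs relative to CD62L-neg GMPs, against its level in CD62L-high GMPs relative to CD62L-neg GMPs, both as differences of log2(mean CPM + 1). Blue points are genes called higher and red points genes called lower in CD62L-high GMPs. Most points lie between the dotted line (no difference from CD62L-neg) and the solid line (no difference from CD62L-high).

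Genes of basophils and mast cells were far lower in CD62L-high GMPs. Of 17 such genes, 14 passed the filter on low counts, of which 13 were lower and 1, Mitf, was higher in CD62L-high GMPs, with a median of −8.10 (−6.06 with populations of 3 or fewer counts set at 3), against −0.02 over all genes tested. A gene that is near 0 in 1 population passes the filter only through the other, so counts and medians of lists such as this one describe the libraries and carry no test. Cpa3 (chr3:20215620-20242181, minus strand), the carboxypeptidase of mast cell granules, stood at 236, 353 and 217 CPM in the CD62L-neg libraries and had no count in any CD62L-high library, so that it was at least 3636-fold higher in CD62L-neg GMPs. CD62L-low GMPs held 10.9 ± 3.52 and bulk GMPs 40.4 ± 2.49 CPM of it, and every library of these 2 populations lay between the ends. Prss34 and Mcpt8, which encode proteases of basophil granules, were at 234 ± 65.5 and 119 ± 38.0 CPM in CD62L-neg GMPs and at 0.120 ± 0.113 and 2.56 ± 0.537 CPM in CD62L-high GMPs. Both receptor genes of the IgE response followed. Ms4a2, the beta chain of the high-affinity IgE receptor, was at 156, 297 and 144 CPM in the CD62L-neg libraries and at 0.400, 0.449 and 0.473 CPM in the CD62L-high libraries (−8.78 ± 0.39, adjusted p = 2.11e-07). Fcer1a, its alpha chain, was at 7.03 ± 2.87 CPM with no count at the other end, at least 95.2-fold higher in CD62L-neg GMPs. CD62L-neg replicate 2 held the most of Cpa3, Prss34, Ms4a2, Mcpt8 and Fcer1a among its replicates. As in every called gene, no CD62L-neg library overlapped a CD62L-high library for any of them.

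Histidine decarboxylase (Hdc), which makes histamine, was the member that kept the most of its level, at 43.5 ± 5.19 CPM in CD62L-high GMPs against 323 ± 24.2 CPM in CD62L-neg GMPs (−2.89 ± 0.16, adjusted p = 7.04e-07), apart from Lmo4 (−1.82 ± 0.23), a LIM-domain cofactor. Il1rl1, the receptor of interleukin 33, was at 30.5, 48.8 and 29.6 CPM in the CD62L-neg libraries and had no count in the CD62L-high libraries, a difference of at least 491-fold. The same was seen for Slc18a2, a vesicular transporter of monoamines such as histamine (29.5 ± 11.4 CPM against no count), and for Slc22a3, a transporter of organic cations (43.9 ± 5.95 CPM against no count). Mitf, a transcription factor of mast cells and melanocytes, ran against the list, at 9.09 ± 2.58 CPM in CD62L-neg and 24.0 ± 0.739 CPM in CD62L-high GMPs (1.40 ± 0.25, adjusted p = 0.00272).

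Eosinophil genes were also nearly absent from CD62L-high GMPs. Of 10, 9 passed the filter and all 9 were lower in CD62L-high GMPs, with a median of −9.02 (−6.08 with populations of 3 or fewer counts set at 3). Prg2 (chr2:84980461-84983632, plus strand), the major basic protein of eosinophil granules, was at 844, 1349.9 and 1005 CPM in the CD62L-neg libraries and at 0, 0.0749 and 3.92 CPM in the CD62L-high libraries (−9.56 ± 0.85, adjusted p = 1.95e-05). Eosinophil peroxidase (Epx) was at 364 ± 64.5 CPM against 0.325 ± 0.338 CPM (−10.01 ± 0.43, adjusted p = 2.11e-07). For both genes, the highest CD62L-high library was far below the lowest CD62L-neg library, and CD62L-low GMPs were also near 0, at 4.13 ± 1.67 and 0.754 ± 0.795 CPM. Il5ra, the receptor through which interleukin 5 drives eosinophils, was at 8.86, 4.05 and 1.92 CPM in the CD62L-neg libraries and had no count in the CD62L-high libraries, at least 67.8-fold lower. Siglecf, a surface lectin of eosinophils, kept more, at 3.44 ± 1.93 CPM against 45.3 ± 11.6 CPM (−3.70 ± 0.39). The eosinophil ribonucleases Ear1, Ear2 and Ear6 were also lower, but they are near copies of each other whose reads may be shared.

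The listed eosinophil genes summed to between 1267 and 1964 CPM in CD62L-neg libraries, 18.6 to 19.1 CPM in CD62L-low libraries and 3.44 to 10.7 CPM in CD62L-high libraries. Bulk GMPs, at 132 to 146 CPM, held 8.63% of the mean of CD62L-neg GMPs. The corresponding sums of basophil and mast cell genes were 1324 to 2150.1, 174 to 222 and 104 to 129 CPM, with bulk GMPs at 363 to 381 CPM (22.5% of CD62L-neg).

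GATA2 is a factor of mast cells and basophils, and GATA1 of eosinophils and mast cells besides the erythroid line, and both of their genes were lower at the CD62L-high end. Gata2 (chr6:88193891-88207032, plus strand) was at 233, 347 and 208 CPM in the CD62L-neg libraries and at 4.4, 7.26 and 1.55 CPM in the CD62L-high libraries (−5.90 ± 0.44, adjusted p = 4.87e-06). Gata1 was at 8.47, 20.9 and 9.62 CPM and had no count in the CD62L-high libraries, at least 175-fold lower. Since the called genes included these factors, the 250 bases before annotated transcription starts (RefSeq, GRCm38.p6) were searched for the GATA motif, which was spelled in any of 4 ways on both strands. These were AGATAA, with AGATAG beside it, as well as TGATAA, together with the spelling TGATAG. The spellings share bases, so overlapping matches were counted separately. The promoters of 3 genes of mast cells and basophils are shown for their matches, with that of Mpeg1, a macrophage gene that was higher in CD62L-high GMPs and whose promoter also holds them. They were chosen after the values were seen. Matches are in capitals, and each run is written 5′ to 3′ on the gene's strand. They come from chr3:20242182-20242431 (minus strand) for Cpa3, chr1:40429320-40429569 (plus) for Il1rl1, chr19:11623720-11623969 (minus) for Ms4a2 and chr19:12460520-12460769 (plus) for Mpeg1.
Cpa3: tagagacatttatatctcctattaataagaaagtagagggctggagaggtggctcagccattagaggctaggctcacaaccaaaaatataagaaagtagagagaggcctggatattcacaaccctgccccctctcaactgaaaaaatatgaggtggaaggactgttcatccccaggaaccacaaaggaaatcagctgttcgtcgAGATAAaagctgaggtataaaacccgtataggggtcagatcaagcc
Il1rl1: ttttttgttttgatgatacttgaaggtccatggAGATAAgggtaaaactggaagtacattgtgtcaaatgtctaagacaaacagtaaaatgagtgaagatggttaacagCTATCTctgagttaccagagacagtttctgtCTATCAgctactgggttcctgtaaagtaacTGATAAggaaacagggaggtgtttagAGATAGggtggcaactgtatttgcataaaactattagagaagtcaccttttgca
Ms4a2: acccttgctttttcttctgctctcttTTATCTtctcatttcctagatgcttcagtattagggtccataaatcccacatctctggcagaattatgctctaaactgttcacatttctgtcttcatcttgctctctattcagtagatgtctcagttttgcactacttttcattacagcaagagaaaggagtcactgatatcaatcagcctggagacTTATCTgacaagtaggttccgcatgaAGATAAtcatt
Mpeg1: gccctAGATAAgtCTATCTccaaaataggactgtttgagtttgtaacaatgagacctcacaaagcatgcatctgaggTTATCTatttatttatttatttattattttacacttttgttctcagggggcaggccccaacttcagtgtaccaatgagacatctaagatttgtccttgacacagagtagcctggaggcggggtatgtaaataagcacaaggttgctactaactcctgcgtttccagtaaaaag
The window of Cpa3 held 1 match, that of Il1rl1 held 5, that of Ms4a2 held 3 and that of Mpeg1 held 3. Of the 10 genes with the largest loss, 8 held a match in any of their windows. Of the 10 genes with the largest gain, 6 have a window, and 0 of these held a match. These are counts of genes, some with more than 1 window, whereas the shares below are of windows, so they are not on the same scale. Over all called genes, however, the motif had a similar frequency among higher and lower genes. It was in 19.8% of 641 windows of genes lower in CD62L-high GMPs, in 20.2% of 564 windows of genes higher there, in 16.6% of windows of genes tested and not called and in 26.5% of all 32851 windows of the table. A match of these letters is a description and not a site of binding.

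Erythroid genes were present at low levels in CD62L-neg GMPs and lower still in CD62L-high GMPs. Of 35, 15 passed the filter, 11 were lower and 0 were higher by edgeR, with 0 higher at an unadjusted p under 0.05 and 0 by DESeq2. Klf1, the factor that switches on adult globin genes, was at 4.05, 4.37 and 5.29 CPM in the CD62L-neg libraries and had no count in the CD62L-high libraries, at least 61.8-fold lower. Tfr2, a receptor of transferrin, was at 30.5 ± 4.78 CPM against 0.838 ± 0.916 CPM (−5.12 ± 0.53), and Zfpm1, which encodes the GATA1 partner FOG-1, at 35.8 ± 6.25 CPM against 4.14 ± 0.604 CPM (−3.10 ± 0.24). Gfi1b, a repressor needed for red cells and platelets, was at 4.50, 19.8 and 6.41 CPM against 0, 0.449 and 0 CPM. Tal1, a factor shared with stem cells, fell by 1.64 ± 0.33. The factor gene Lmo2 was lower but under the 2-fold threshold, at 149 and 105 CPM (−0.50 ± 0.14, adjusted p = 0.0296). By contrast, the factor gene Nfe2 (97.2 and 97.7 CPM) was not called, and no listed globin gene passed the filter. Like every called gene, the 5 named erythroid genes that were called separated the populations in every library.

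Of 30 megakaryocyte and platelet genes, 15 passed the filter, 9 were lower and 1 was higher. Itga2b, the CD41 subunit of the platelet fibrinogen receptor, was at 106, 129 and 100.4 CPM in the CD62L-neg libraries and at 0.560, 0 and 0.135 CPM in the CD62L-high libraries (−8.91 ± 0.44, adjusted p = 3.51e-07). Late platelet genes were low even at the CD62L-neg end, where Pf4 (platelet factor 4) was at 4.01 ± 2.36 CPM and Gp9, a subunit of the von Willebrand factor receptor, at 2.46 ± 1.5 CPM. The calls of Pf4, Gp1ba and Vwf were lost when 1 CD62L-neg library was left out (replicate 3, replicate 2 and any, respectively). Selp, which encodes P-selectin, was the member that was higher in CD62L-high GMPs, at 5.41 ± 3.47 CPM against 0.307 ± 0.403 CPM (4.09 ± 0.97, adjusted p = 0.0148), and its call was lost without CD62L-neg replicate 2. Its exons share 14.1% of their bases with gene models on the other strand.

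Genes of stem and multipotent progenitors moved the same way. Of 35, 21 passed the filter, 12 were lower and 1 was higher. Angpt1, the ligand of the receptor TIE2, was at 80.5, 110.1 and 66.7 CPM in the CD62L-neg libraries and at 0.400, 2.40 and 1.76 CPM in the CD62L-high libraries (−5.79 ± 0.41, adjusted p = 3.11e-06). The factors Hlf (−1.70 ± 0.35), Hoxa9 (−1.60 ± 0.31) and Meis1 (−1.39 ± 0.25), which act in self-renewal, were lower by less, with no overlap between libraries, as in every called gene. Meis1 fell from 23.8 ± 5.53 to 9.03 ± 1.21 CPM, and 18.3% of its exon bases are shared with other gene models. Flt3, the receptor of FLT3 ligand and a gene of lymphoid and dendritic cell progenitors as well, ran against the list, at 4 ± 0.453 CPM in CD62L-neg and 18.5 ± 2.54 CPM in CD62L-high GMPs (2.21 ± 0.27, adjusted p = 0.000202).

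Genes of monocytes and macrophages were higher at the CD62L-high end. Of 35, 31 passed the filter, 23 were higher and 0 were lower by edgeR, with a median of 2.94. At an unadjusted p under 0.05, 1 gene was lower, and it also passed the adjusted p without the fold criterion. DESeq2 called 25 higher and 0 lower. The list summed to between 1111 and 1158 CPM in CD62L-neg libraries, 3941 to 4241 CPM in CD62L-low libraries, 4387 to 4490.4 CPM in bulk GMPs and 6494 to 7341 CPM in CD62L-high libraries. F13a1, the A subunit of coagulation factor XIII, which monocytes carry, was at 69.0, 45.6 and 62.9 CPM in the CD62L-neg libraries and at 1366, 1540.2 and 1526 CPM in the CD62L-high libraries (4.65 ± 0.20, adjusted p = 2.11e-07). Each CD62L-high library held more than any library of the other GMP populations. Ccr2, which encodes the receptor for CCL2 that draws monocytes into the blood, was at 7.18, 7.23 and 5.13 CPM against 170, 123 and 118 CPM (4.4 ± 0.23, adjusted p = 4.52e-07). Ly86, which encodes the MD-1 partner of a Toll-like receptor homolog, was at 2.65 ± 0.391 CPM against 88.0 ± 16.2 CPM (5.06 ± 0.23, adjusted p = 2.61e-07). CD62L-high replicate 1 was the highest for Ccr2 and Ly86 and the lowest for F13a1, and it overlapped no CD62L-neg library, as in every called gene.

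Other members of the monocyte and macrophage list differed in their level in CD62L-neg GMPs. Cathepsin S (Ctss), a protease of antigen-presenting cells, was at 1.15, 0.715 and 0 CPM in the CD62L-neg libraries and at 67.0, 63.2 and 60.3 CPM in the CD62L-high libraries (6.65 ± 0.48, adjusted p = 4.10e-06). Fn1 (fibronectin) went from 0.832 ± 0.582 to 74.3 ± 10.7 CPM (6.46 ± 0.39). Lysozyme (Lyz2, 37.0 ± 7.94 and 283 ± 24.6 CPM) and prosaposin (Psap, 115 ± 4.35 and 765 ± 89.6 CPM) were already expressed in CD62L-neg GMPs. Mpeg1, the pore-forming perforin-2 of macrophages, went from 22 ± 0.563 to 250.4 ± 42.1 CPM (3.52 ± 0.18). Not every gene of the list moved: Clec12a, a lectin of myeloid cells, was at 178 ± 20.7 and 161 ± 11.2 CPM (−0.13 ± 0.15, adjusted p = 0.619).

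**Figure D4:**
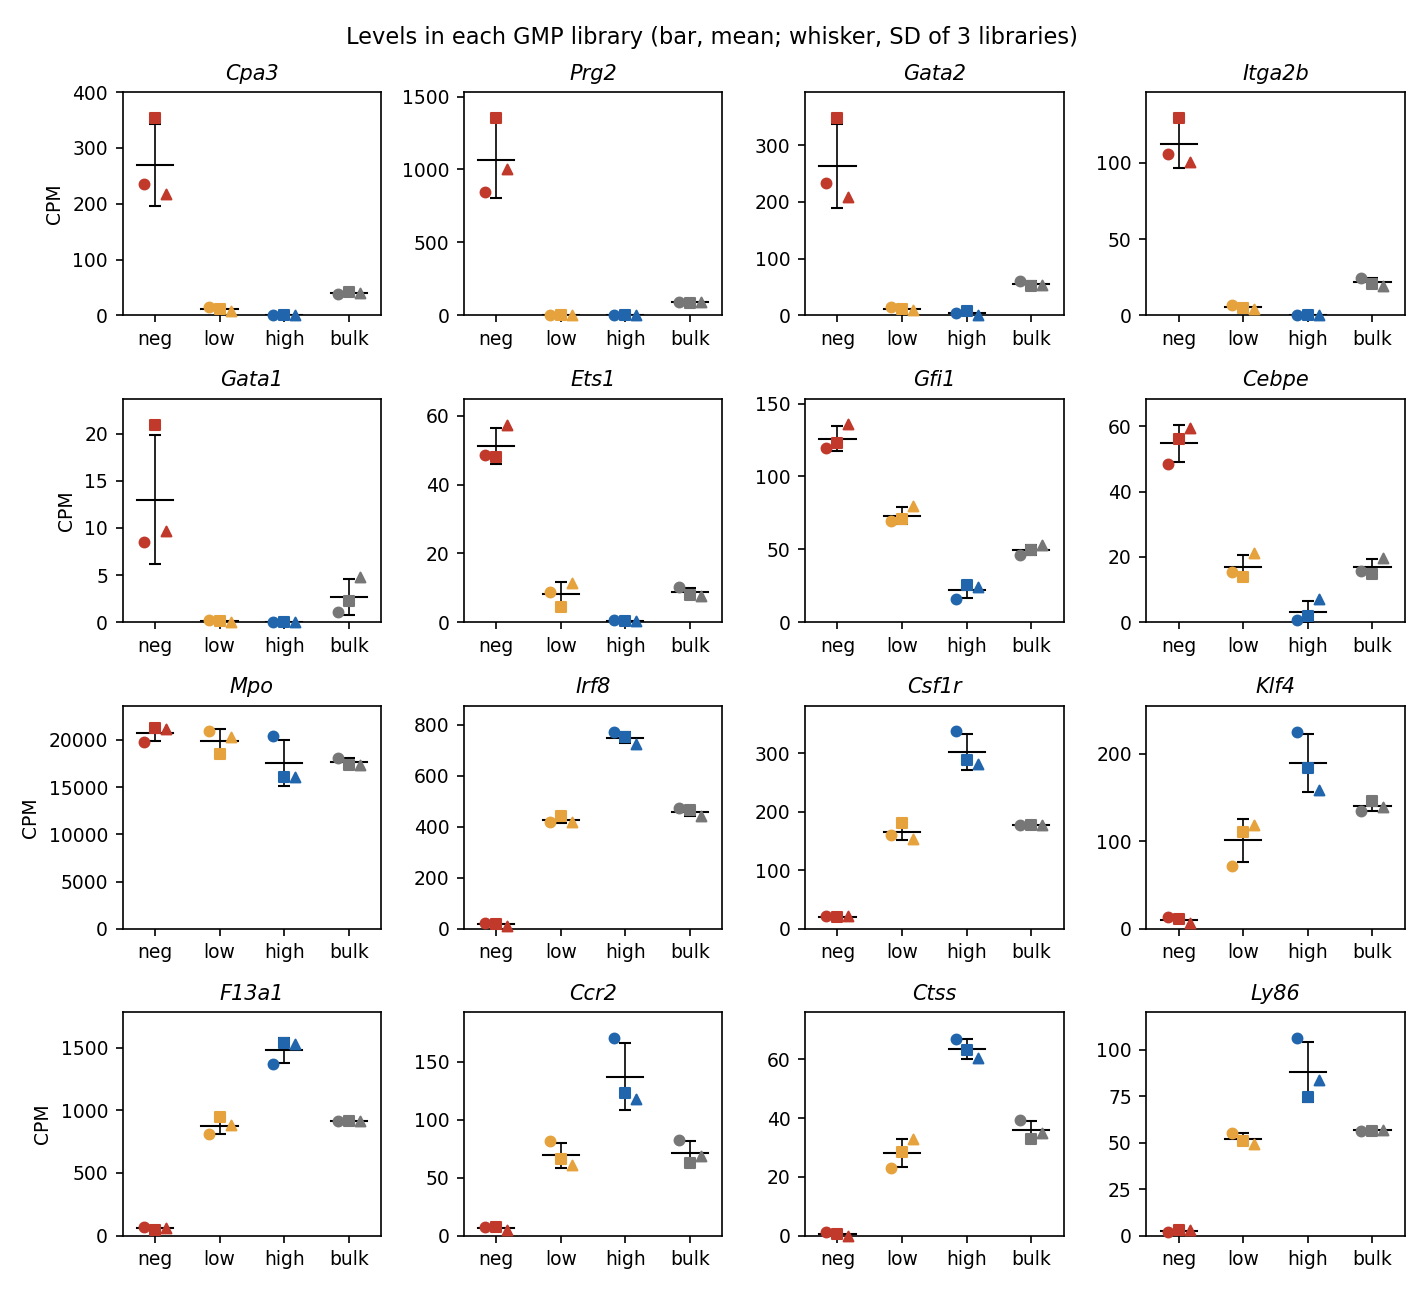
Level in CPM of 16 genes in each of the 12 GMP libraries, one panel per gene with its own linear axis from 0. Points are libraries, with shapes for replicate numbers, bars are means of 3 libraries and whiskers their SD. Cpa3, Prg2, Gata2, Itga2b, Gata1, Ets1, Gfi1 and Cebpe are highest in CD62L-neg GMPs, Mpo is of a similar level in all, and Irf8, Csf1r, Klf4, F13a1, Ccr2, Ctss and Ly86 are highest in CD62L-high GMPs.

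Transcription factors known for the monocyte line were higher in CD62L-high GMPs. Irf8 (chr8:120736358-120756694, plus strand) was at 22.8, 21.2 and 13.1 CPM in the CD62L-neg libraries and at 771, 754 and 726 CPM in the CD62L-high libraries (5.31 ± 0.23, adjusted p = 2.11e-07). CD62L-low GMPs stood at 428 ± 14.5 CPM and bulk GMPs at 460.4 ± 16.7 CPM, so that CD62L-neg GMPs were the population set apart. Klf4 was at 13.8, 11.0 and 6.41 CPM against 225, 183 and 159 CPM (4.19 ± 0.28, adjusted p = 2.06e-06), and Irf5, a factor of inflammatory macrophages, went from 5.71 ± 1.98 to 68.9 ± 19.6 CPM (3.60 ± 0.30). Cebpb rose less, from 65.3 ± 8.01 to 157 ± 20.9 CPM (1.27 ± 0.17). The factors that act in all GMPs differed little. Cebpa, needed to form GMPs, was at 170 ± 22.8 and 170.5 ± 14.4 CPM (0.01 ± 0.15, adjusted p = 0.972), and Spi1, which encodes PU.1, was at 132 ± 16.2 and 190.4 ± 24.2 CPM (0.53 ± 0.16), under the 2-fold threshold. Exons of Cebpb (20.7% of bases), Irf5 (14.1%) and, among the genes below, Mpo (15%) and Csf1r (15.1%) overlap those of a gene on the other strand. Of 25 listed myeloid factors that passed the filter, 8 were higher and 5 were lower.

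Neutrophil genes did not move as 1 group. Of 15 genes of neutrophil fate, all passed the filter, 11 were lower in CD62L-high GMPs and 0 were higher by edgeR, with a median of −2.09. DESeq2 gave the same counts, and 0 were higher at an unadjusted p under 0.05. Gfi1 (chr5:107716657-107726036, minus strand) was at 119.6, 123 and 136 CPM in the CD62L-neg libraries and at 16.1, 25.8 and 23.8 CPM in the CD62L-high libraries (−2.52 ± 0.19, adjusted p = 4.87e-06). Cebpe was at 48.6, 56.1 and 59.6 CPM against 0.800, 1.87 and 6.96 CPM (−4.06 ± 0.52, adjusted p = 0.000305). In CD62L-low GMPs, Gfi1 (73.2 ± 5.79 CPM) and Cebpe (16.8 ± 3.92 CPM) lay between the ends. Ets1, a transcription factor better known in lymphocytes, fell from 51.2 ± 5.27 to 0.352 ± 0.182 CPM (−7.17 ± 0.32), Cd63, a tetraspanin of granule membranes in neutrophils and basophils, from 256 ± 38.6 to 6.55 ± 2.42 CPM (−5.28 ± 0.28), and Vcam1, an adhesion molecule, from 47.4 ± 7.69 to 2.38 ± 0.904 CPM (−4.29 ± 0.29). Some members of this list, such as Cd63 and Sox4, are also expressed in other progenitors. Rgcc (−1.39 ± 0.14) and Cd81 (−1.27 ± 0.15) were lower too, while Csf3r, the receptor of granulocyte colony-stimulating factor, was at 122 ± 17.6 and 98.1 ± 10.1 CPM and was not called (−0.31 ± 0.16, adjusted p = 0.248).

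The granule enzymes that mark promyelocytes were at a high level at both ends. Myeloperoxidase (Mpo) was at 19785, 21234 and 21208 CPM in the CD62L-neg libraries and at 20398, 16132 and 16109.6 CPM in the CD62L-high libraries (−0.23 ± 0.15, adjusted p = 0.358), and the groups overlapped. Neither neutrophil elastase (Elane, −0.26 ± 0.16) nor proteinase 3 (Prtn3, 0.33 ± 0.17) was called. Cathepsin G (Ctsg) was lower in CD62L-high GMPs but under the 2-fold threshold, at 973 ± 56.9 and 569 ± 24.7 CPM (−0.77 ± 0.13, adjusted p = 0.00197). Of 12 genes of primary granules, 11 passed the filter, 5 were lower and 2 were higher, with a median of −0.77. The lower ones included Ms4a3, a marker of GMPs and their progeny (318 ± 13 and 133 ± 6.46 CPM, −1.24 ± 0.14), and Nkg7 (140.3 ± 6.39 and 36.8 ± 10.3 CPM, −1.92 ± 0.20). One of the higher ones was Ctsc, the cathepsin that activates the granule proteases (31.3 ± 5.30 and 111 ± 7.98 CPM, 1.83 ± 0.17).

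Genes of secondary and tertiary granules, which are filled later, were low in both populations and went both ways. Of 16, 11 passed the filter, 4 were lower and 3 were higher. Pglyrp1, a peptidoglycan-binding protein, fell from 42.5 ± 5.8 to 2.58 ± 1.15 CPM (−4.03 ± 0.33). S100a8, a subunit of calprotectin, was at 9.24, 7.70 and 26.4 CPM in the CD62L-neg libraries and at 1.92, 3.15 and 2.36 CPM in the CD62L-high libraries (−2.54 ± 0.49, adjusted p = 0.00457). In the other direction, Chil3, a chitinase-like protein of neutrophils and monocytes, was at 0.916, 0.0794 and 4.97 CPM against 23, 30.2 and 42.9 CPM (4.01 ± 0.73, adjusted p = 0.00309). The collagenase Mmp8 had no count in CD62L-neg GMPs and 3.52 ± 0.885 CPM in CD62L-high GMPs, at least 45.4-fold higher. Cd177, a neutrophil surface protein, had 1 count over the 3 CD62L-neg libraries and 155 over the CD62L-high libraries, a ratio of 145 (95% exact counting interval 25.7 to 5783, which covers counting error only).

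Receptors for colony-stimulating factors and cytokines went both ways. Of 22, 19 passed the filter, 6 were higher and 4 were lower. Csf1r, the receptor of macrophage colony-stimulating factor, was at 21.3, 19.9 and 21.5 CPM in the CD62L-neg libraries and at 337, 288 and 282 CPM in the CD62L-high libraries (3.86 ± 0.16, adjusted p = 2.11e-07). Both chains of the interleukin 6 receptor were higher. Il6st, the signaling chain gp130, went from 8.14 ± 2.66 to 192 ± 12 CPM (4.57 ± 0.24) and Il6ra, the binding chain, from 26.6 ± 3.43 to 171 ± 31.7 CPM (2.70 ± 0.19). Il10ra, the receptor of interleukin 10, went from 1.57 ± 0.373 to 28.8 ± 5.86 CPM (4.20 ± 0.31). The lower members were Il1rl1, Il5ra, Kit and Il17rb, which encodes a receptor of interleukin 25 (16.9 ± 1.33 and 1.79 ± 0.815 CPM). Csf2ra, a receptor chain for granulocyte/macrophage colony-stimulating factor, was at 53.3 ± 4.64 and 101 ± 21.3 CPM, just under the 2-fold threshold (0.93 ± 0.18, adjusted p = 0.00480), and was called without either of CD62L-high replicates 2 and 3.

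Of 28 genes of innate sensing, 22 passed the filter, 8 were higher and 1 was lower. Clec7a, the β-glucan receptor dectin-1, was at 4.43, 5.40 and 2.32 CPM in the CD62L-neg libraries and at 71.3, 61.6 and 69.9 CPM in the CD62L-high libraries (4.06 ± 0.27, adjusted p = 2.29e-06). Tlr9, a receptor of unmethylated DNA, was at 0.916, 0 and 0 CPM against 16.2, 8.09 and 11.5 CPM (5.23 ± 0.87, adjusted p = 0.00179), and Unc93b1, which carries such receptors to endosomes, went from 70.7 ± 8.24 to 446 ± 50.3 CPM (2.66 ± 0.17). Tlr4, the endotoxin receptor, was at 12.1 and 7.72 CPM and was not called, and the lectin Clec4e was lower (−1.46 ± 0.30). Cybb, the catalytic subunit of the phagocyte NADPH oxidase, was the called member of its complex, at 19.1 ± 5.41 and 199 ± 27.4 CPM (3.39 ± 0.22), whereas the other 5 subunit genes listed were not called. Of 11 cathepsin genes, 10 passed the filter, 3 were higher (Ctss, Ctsh and Ctsc) and 1, Ctse, was lower.

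Of 26 adhesion genes, 21 passed the filter, 6 were higher and 3 were lower. Itga1, a collagen-binding integrin subunit, was at 3.36, 1.83 and 2.64 CPM in the CD62L-neg libraries and at 101, 76.7 and 76.8 CPM in the CD62L-high libraries (5.02 ± 0.26, adjusted p = 4.41e-07). Selplg, the selectin ligand PSGL-1, went from 90.5 ± 12.9 to 284 ± 8.73 CPM (1.66 ± 0.15), and Itgal, the LFA-1 subunit, from 74.6 ± 6.41 to 183 ± 1.34 CPM (1.30 ± 0.14). E-cadherin (Cdh1) was at 44.4, 76.4 and 41.1 CPM against 0, 0.300 and 0.135 CPM (−8.42 ± 0.49, adjusted p = 9.98e-07). Among 13 of 19 chemokine and receptor genes that passed the filter, Ccr2 and Cx3cr1 were higher and Cxcl2, Ccl4 and Ccrl2 lower, and Cxcr4, which holds progenitors in the marrow, was not called (129 ± 17.8 and 194 ± 63.3 CPM), with CD62L-high replicate 1 at 267 CPM against 154 and 161 CPM.

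Dendritic cell and antigen presentation genes were low throughout. Of 22, 12 passed the filter, 5 were higher and 0 were lower by edgeR, with 0 lower at an unadjusted p under 0.05 and 0 by DESeq2. Cd74, the invariant chain, was at 3.74, 3.41 and 1.44 CPM in the CD62L-neg libraries and at 5.36, 12.7 and 24.2 CPM in the CD62L-high libraries (2.29 ± 0.54, adjusted p = 0.0132), a call that was lost without CD62L-high replicate 3 (1.65) or CD62L-neg replicate 2 or 3. Among 17 lymphoid progenitor genes, 9 passed the filter, 3 were higher and 3 were lower. Ighm, the constant region of immunoglobulin M, was at 4.58, 4.29 and 6.09 CPM against 211, 147 and 133 CPM (5.05 ± 0.25, adjusted p = 3.84e-07), beside the B cell genes summed above, whose part in it was not tested. Notch1 went from 69.8 ± 9.41 to 156 ± 24.3 CPM (1.17 ± 0.17). Rag2, a recombinase of lymphocytes, was lower, with 60 counts over the CD62L-neg libraries and 1 over the CD62L-high libraries (ratio 63.9, 95% exact counting interval 11.0 to 2566), and lost its call without CD62L-neg replicate 2.

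**Figure D5:**
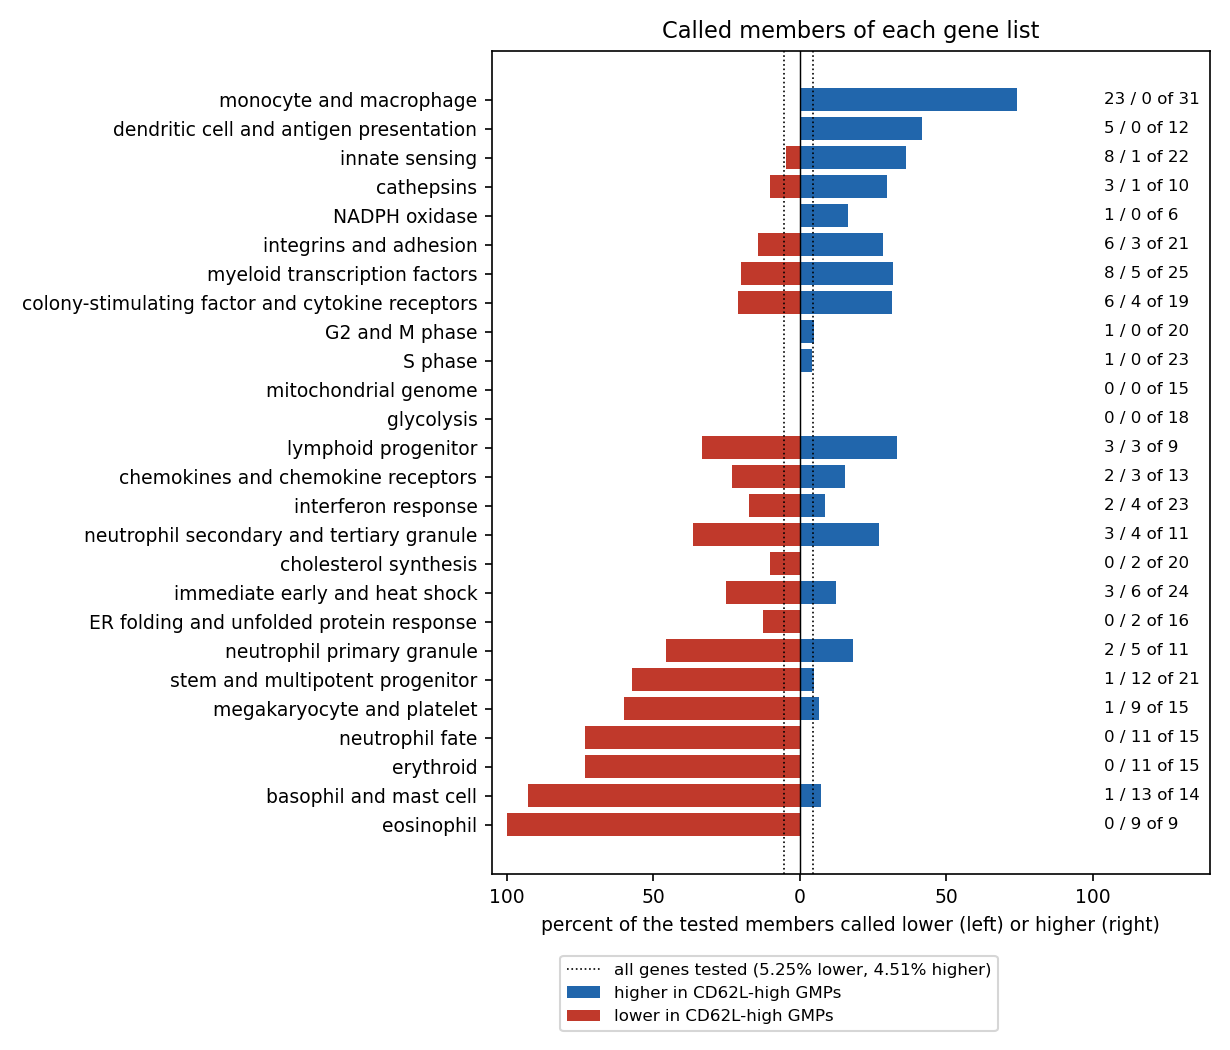
Percent of the tested members of each gene list called higher (blue, to the right) or lower (red, to the left) in CD62L-high GMPs, with the counts higher / lower of tested at the right. Dotted lines mark the share over all genes tested, 4.51% higher and 5.25% lower. Eosinophil and basophil and mast cell genes reach furthest to the left and monocyte and macrophage genes furthest to the right.

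Genes of cell division were mostly under the 2-fold threshold. Of 23 S phase genes 1 was higher and of 20 genes of G2 and M phase 1 was higher by edgeR and by DESeq2. All 20 genes of G2 and M phase had a positive fold change, with a median of 0.55, and 9 of them passed an adjusted p of 0.05 without the fold criterion. The sum of the list was between 2261 and 2439 CPM in CD62L-neg libraries and between 2738 and 3902 CPM in CD62L-high libraries, without overlap. Aurkb, a kinase of chromosome segregation, was at 57.6 ± 8.19 and 98.6 ± 4.77 CPM (0.78 ± 0.16, adjusted p = 0.00597). Mki67, the gene of the proliferation antigen Ki-67, was at 749, 671 and 817 CPM in the CD62L-neg libraries and at 857, 1419.6 and 1428 CPM in the CD62L-high libraries (0.73 ± 0.19, adjusted p = 0.0238), under the 2-fold threshold. The called member of that list, the cytokinesis motor Kif23, lost its call without CD62L-neg replicate 1 (0.97) or CD62L-high replicates 2 or 3 (0.99 each). Of 20 glycolysis genes, 18 passed the filter and 0 were called by edgeR and by DESeq2. At an unadjusted p under 0.05, 2 were higher and 3 lower, and by the adjusted p alone 1 was higher and 2 lower. Without CD62L-high replicate 1, 2 were called lower. Of 15 genes of the mitochondrial genome, 0 were called by edgeR and by DESeq2, and 0 had an unadjusted p under 0.05.

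Genes that respond to handling of cells, which are also induced by growth factors, went both ways. Of 25, 24 passed the filter, 6 were lower and 3 were higher. Without CD62L-high replicate 1, 8 were lower and 3 were higher. Egr1 was at 158, 159 and 102 CPM in the CD62L-neg libraries and at 3.84, 8.46 and 5.40 CPM in the CD62L-high libraries (−4.56 ± 0.29, adjusted p = 1.66e-06). Ier3 fell from 54.8 ± 25.1 to 4.34 ± 0.712 CPM (−3.65 ± 0.32) and Jun from 1211 ± 93.3 to 507 ± 99.6 CPM (−1.25 ± 0.16). Fos (469.6 ± 77.8 and 581 ± 80.0 CPM) was not called, and Atf3 went the other way, from 9.12 ± 1.74 to 27.7 ± 6.62 CPM (1.61 ± 0.25). Whether the handling of the sorted cells had a part in these values was not tested.

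Of 17 genes of protein folding in the endoplasmic reticulum and the unfolded protein response, 16 passed the filter. The 2 called members, Calr and Asns, were lower. By the adjusted p alone, 6 were lower and 0 were higher. The list summed to between 8389 and 9308 CPM in CD62L-neg libraries and to between 3600 and 6496 CPM in CD62L-high libraries, without overlap. Hspa5 was under the fold threshold (−0.99 ± 0.19, adjusted p = 0.00421). It was at 1319, 1205 and 1399 CPM in the CD62L-neg libraries and at 458, 746 and 774 CPM in the CD62L-high libraries. The median of the list was −0.37, and −0.21 without CD62L-high replicate 1. Calr, the chaperone calreticulin, was at 3539, 3291 and 3576 CPM in the CD62L-neg libraries and at 751, 2071 and 2064 CPM in the CD62L-high libraries (−1.09 ± 0.30, adjusted p = 0.0278). The low value was that of replicate 1, the library with the raised share of ribosomal gene models, and without it the fold change was −0.75 and the call was lost. The call was also lost without any of the CD62L-neg libraries, with fold changes of −1.13 to −1.07. Of 26 genes of the interferon response, 23 passed the filter, 2 were higher and 4 were lower. The lower members were Ddx58, the RNA sensor RIG-I (17 ± 3.87 and 1.4 ± 1.81 CPM, −3.62 ± 0.81), Oasl2 (−2.73 ± 0.56), Isg15 (−3.24 ± 0.98) and Ifit1 (2.8 ± 2.76 and 0.212 ± 0.185 CPM), and the calls of Isg15 and Ifit1 were lost without any 1 of the 6 libraries, that of Ddx58 without CD62L-neg replicate 2 or 3, and that of Oasl2 without CD62L-neg replicate 2. Mx1, a GTPase that blocks viruses, was higher at a low level (0.446 ± 0.202 and 5.49 ± 0.629 CPM, 3.60 ± 0.60). Ifitm3, a restriction factor of viruses, was higher at 69.4, 30.3 and 34.0 CPM against 18.9, 19.7 and 17.8 CPM, and it too lost its call without replicate 1 (0.78), as it did without any of the CD62L-neg libraries (1.21 to 1.28).

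Among the 10 genes with the largest gain were some outside these lists. Nrp1, the neuropilin that binds semaphorins, was at 0.534, 0.635 and 1.36 CPM in the CD62L-neg libraries and at 41.8, 54.7 and 57.9 CPM in the CD62L-high libraries (5.92 ± 0.33, adjusted p = 7.04e-07). Lipoprotein lipase (Lpl) went from 0.160 ± 0.212 to 16.7 ± 1.73 CPM (6.65 ± 0.61) and the vitamin D receptor (Vdr) from 0.367 ± 0.281 to 17.7 ± 5.04 CPM (5.56 ± 0.52). That each of the 3 CD62L-high libraries exceeded each CD62L-neg library was a condition for choosing these genes. Of the 10 genes with the largest loss, Fgf3, a growth factor, Cyp11a1, the side-chain cleavage enzyme of steroid synthesis, Csrp3, a LIM protein, and the transporter Slc45a3 had no count in any CD62L-high library and were at least 245-fold, 220.2-fold, 246-fold and 228-fold lower.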

How the data were processed

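Mouse GMPs sorted by CD62L were profiled by RNA sequencing, 3 libraries per population. The authors deposited whole-number counts per gene, not normalized, made with bcl2fastq, Trim Galore, HISAT2 and HTSeq on mm10. Their versions, the annotation release and the strand setting of the counting are not given in the sources used here. The labels name a stranded library kit and the study's methods another, so reads of genes that overlap on either strand may be shared. Gene IDs were joined to GENCODE vM21 (GRCm38), which gave a symbol for 47224 of 47643.

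The counts of the 6 libraries were tested with edgeR 4.0.16 (R 4.3.3): filterByExpr, TMM scaling and the quasi-likelihood F test, without a replicate term. The threshold was 0.05 after Benjamini-Hochberg adjustment, with more than a 2-fold change. The scripts were tested on simulated counts. DESeq2 1.42.0, other scalings and filters, and leaving out each library were tried as alternatives. Where a population had no count, folds were bounded by setting it at 3 counts over its 3 libraries. Named genes were the 10 with the largest gain and the 10 with the largest loss, among called genes at 10 CPM or more in the higher population whose libraries did not overlap (without unnamed gene models), genes the study names, and members of gene lists. Of the lists, up to 4 called members per direction and the most abundant uncalled ones were preferred, and others were named after their values were seen. The members and lists were chosen with earlier results of these data known. No set test was made. Promoter sequences are RefSeq's (GRCm38.p6), and 903 of the 1237 called genes had one. A few genes are not reported here.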

Additional observations from a re-analysis of the deposited data

How the results depend on the processing

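Under RLE size factors, no filter, a stricter filter, DESeq2, all 12 GMP libraries in the fit and removal of the ribosomal gene models, between 566 and 671 genes were higher and between 641 and 844 lower. The adjusted p alone gave 1017 higher and 945 lower, and a test against a 2-fold change (glmTreat) 252 higher and 326 lower. Leaving out each library gave 486 to 583 higher and 482 to 783 lower, the largest loss count without CD62L-high replicate 1. The deviations of same-numbered libraries from their population means correlated at −0.0584, −0.0968 and 0.0423. Deviations from a mean of 3 libraries depend on each other, so these values cannot settle whether the libraries were paired. A replicate block gave 521 higher and 591 lower, with 2 interferon response genes lower in place of 4.

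Of 139 named genes tested, 20 changed their call or direction under an alternative. Those that lost a call were Kit, Ly6c1, Pf4, Gp1ba, Vwf, Selp, Cd74, Rag2, Kif23, Calr, Ifitm3, Ddx58, Oasl2, Isg15, Ifit1, Asns and Ccrl2, and Csf2ra gained one. The direction turned for a pair of uncalled genes near no change. Leaving out each library in turn moved Cebpa from 0.01 to between −0.08 and 0.11, and Nfe2 from 0.02 to between −0.22 and 0.14, both negative without CD62L-neg replicate 1, CD62L-neg replicate 3 or CD62L-high replicate 1. The cause was not tested. With 3 libraries per population, a difference could exceed its SE and still not pass. Cyba, at 0.49 ± 0.15, had an edgeR adjusted p of 0.0555. Genes that were not called were therefore not shown to be unchanged.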
